A study of Mus musculus with 4 samples.

Results

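The 10 genes described here are imprinted genes of mouse embryonic stem cells that lie outside the Dlk1, Snrpn and H19-Kcnq1 domains. They are Peg3, Usp29, Peg10, Sgce, Mest, Nnat, Plagl1 and Impact, which are expressed from the paternal copy, and Grb10 and Igf2r, which are expressed from the maternal copy in most tissues. They were taken by symbol from the 23259 genes measured, and all 10 were found. They were proposed with the values of these clones in view, and the high level of Grb10 in 1 clone is part of that choice. Their levels and their differences between clones are therefore descriptions, without a test of the set.

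Imprinted genes are transcribed mainly or only from the copy inherited from 1 parent. DNA methylation placed in the egg or the sperm marks the copies, and in each of the domains of these 10 genes the controlling region is known to be methylated on the maternal copy. ZFP57, a zinc finger protein that reads a methylated hexamer, TGCCGC, keeps such marks through early development. Cultured stem cell lines are known to vary in these marks between lines and subclones. RNA levels summed over both copies, as here, do not say which copy a transcript came from.

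RNA was sequenced in 4 clones, 1 library each, to ask how expression differs without Gcn5. Gcn5, listed as Kat2a, is an enzyme of the SAGA and ATAC complexes that acetylates histones. Clones KO 2 (6C4) and KO 1 (4C2) lack exons 3 to 18 of Gcn5 on both copies, and WT 2 (6-1) and WT 1 (4-1) are Gcn5 flox/flox. KO 2 and WT 2 come from founder line 6 and KO 1 and WT 1 from founder line 4. Each line is 1 derivation from a blastocyst of Gcn5 flox/flox parents, with a male karyotype. All 4 clones went through the same transfection with an EF1α-driven GFP-Cre vector and a sort at 72 hours. KO clones were picked from the GFP-positive and WT clones from the GFP-negative cells, so the clones of a line differ in Gcn5 and also in exposure to Cre and in clonal history, which cannot be told apart. The cells were kept in 15% serum and 1000 U/mL of LIF on mitomycin-treated mouse embryonic fibroblasts. The sources used here do not state if these feeders were taken off before RNA isolation.

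Levels are spike-in normalized FPKM (fragments scaled to transcript length and library size, rescaled by the authors with added control RNA). Kat2a stood at 11.5 and 11.5 FPKM in KO 2 and KO 1, against 34.4 and 38.7 FPKM in WT 2 and WT 1. Most genes were lower in KO on this scale: the KO/WT ratio of the median over tested genes, those with a mean of at least 1 FPKM, was 0.894 in line 6 and 0.700 in line 4. WT 2 stood apart from the other clones at few genes. Of 11932 tested genes, 18 (0.151%) were higher in WT 2 than in every other clone by at least 1 on the log2(FPKM + 1) scale, and 8 of them are neighbours on chromosome 12, from Lrr1 to Nemf. In that run Klhdc1 was listed at 4857 FPKM in WT 2 and at 1.57 FPKM in the next clone. Tests that rest on WT 2 are therefore given with and without that clone.

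To show the sequence where transcription of these genes begins, a set of 4 start windows is printed. Grb10 is shown as the gene high in WT 2. Peg3 and Mcts2, a paternally expressed gene of another domain, are shown as genes low in WT 2. Mest is shown as the member whose window holds the ZFP57 hexamer most often. Each is 300 bases of the RefSeq reference, from 250 before to 50 after the annotated start, read 5′ to 3′ on the gene's strand. Capitals mark TGCCGC or its reverse complement GCGGCA.
Grb10 (chr11:12037371-12037670, GRCm38.p6, minus strand): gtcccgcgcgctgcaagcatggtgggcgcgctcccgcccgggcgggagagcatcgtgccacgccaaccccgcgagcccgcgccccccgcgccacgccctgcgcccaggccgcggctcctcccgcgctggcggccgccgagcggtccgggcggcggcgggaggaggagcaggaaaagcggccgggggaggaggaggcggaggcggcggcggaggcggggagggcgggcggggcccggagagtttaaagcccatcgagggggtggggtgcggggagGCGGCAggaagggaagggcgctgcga
Peg3 (chr7:6730370-6730669, GRCm38.p6, minus strand): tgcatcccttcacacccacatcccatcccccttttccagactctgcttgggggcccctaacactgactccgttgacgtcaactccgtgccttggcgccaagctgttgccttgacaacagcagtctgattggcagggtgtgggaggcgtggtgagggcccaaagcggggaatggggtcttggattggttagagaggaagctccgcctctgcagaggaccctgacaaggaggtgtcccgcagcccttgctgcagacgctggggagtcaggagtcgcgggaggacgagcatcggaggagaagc
Mcts2 (chr2:152686898-152687197, GRCm38.p6, plus strand): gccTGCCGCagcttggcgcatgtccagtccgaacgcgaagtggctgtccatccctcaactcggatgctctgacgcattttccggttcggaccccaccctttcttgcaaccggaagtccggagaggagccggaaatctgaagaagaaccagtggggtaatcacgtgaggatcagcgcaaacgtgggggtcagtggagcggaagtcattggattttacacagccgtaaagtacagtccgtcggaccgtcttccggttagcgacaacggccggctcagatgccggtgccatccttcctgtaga
Mest (chr6:30737800-30738099, GRCm38.p6, plus strand): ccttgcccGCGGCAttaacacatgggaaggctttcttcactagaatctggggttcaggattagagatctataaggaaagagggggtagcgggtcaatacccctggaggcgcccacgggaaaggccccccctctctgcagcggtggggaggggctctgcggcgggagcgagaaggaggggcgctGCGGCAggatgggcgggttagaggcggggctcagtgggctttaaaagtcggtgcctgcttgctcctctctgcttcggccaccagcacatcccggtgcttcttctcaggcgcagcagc
Of all 32851 such windows, 11.6% held the hexamer on either strand and 1.53% held it at least 2 times. A window was found for 7 members. The hexamer was in windows of Grb10 (1), Plagl1 (1), Mest (2) and Nnat (1), and these letters were not in those of Igf2r, Peg3 and Usp29. The printed Grb10 window had 45 CpG dinucleotides and the one printed for Peg3 had 13, against a median of 7 over all windows. A second Grb10 start had 9 CpG and no hexamer, and of 3 Mest starts the most upstream had 8 CpG and no hexamer. Peg3 and Usp29 start head to head, and their windows share 263 bases. A match is a description of letters and was not tied to any level below.

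**Figure D1:**
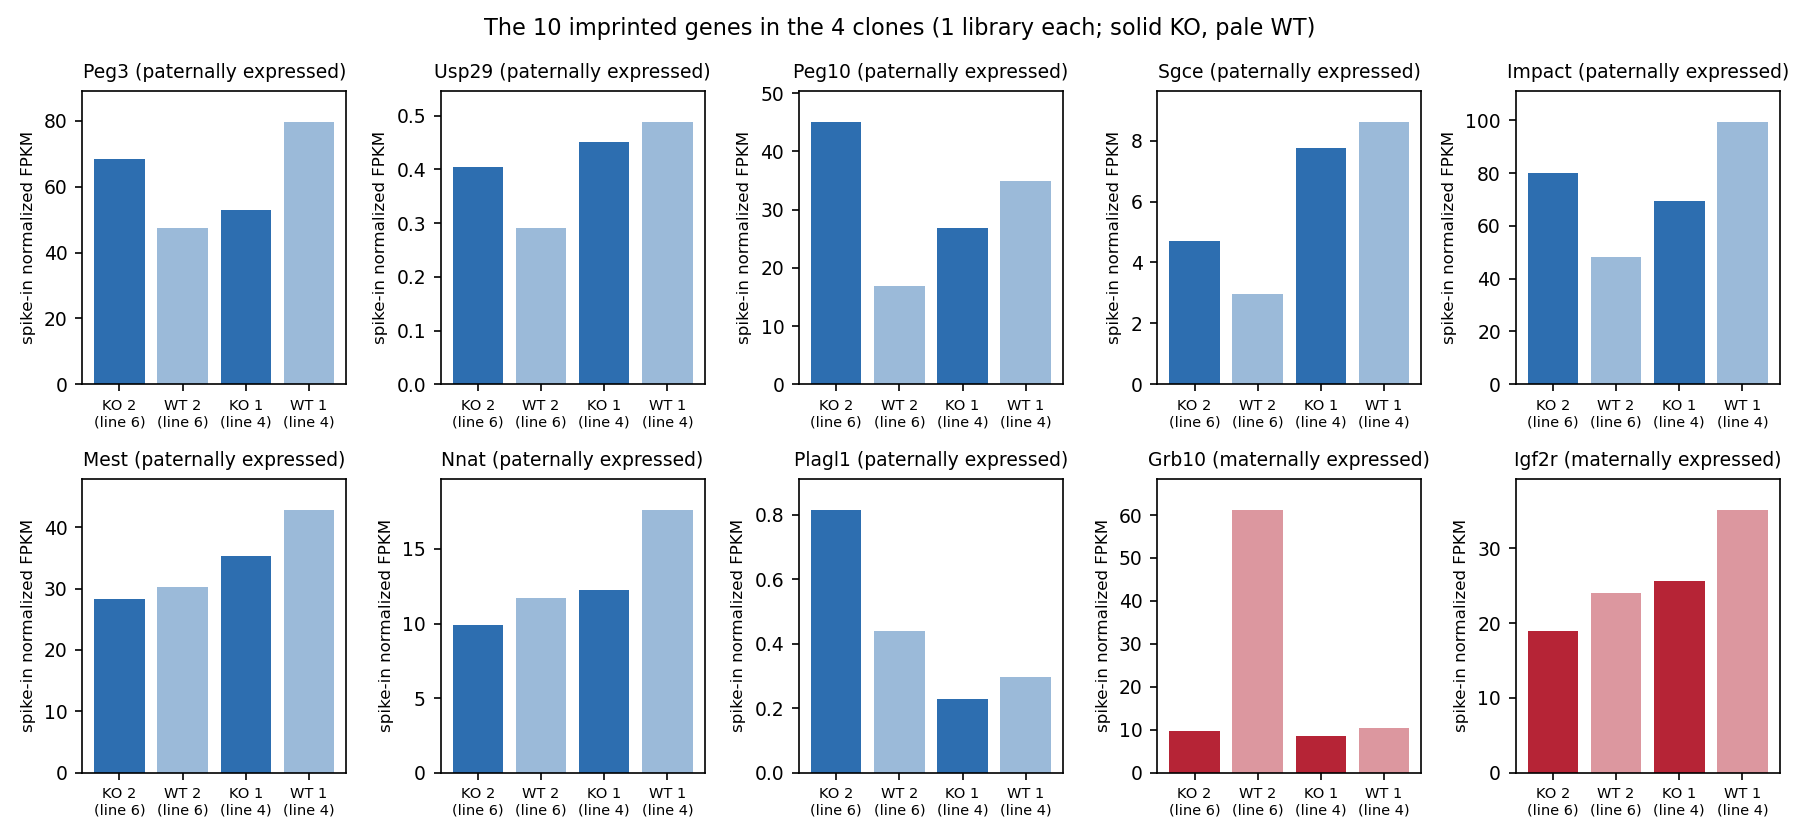
Spike-in normalized FPKM of the 10 imprinted genes in the 4 clones, 1 bar per library, with the clones KO 2 and WT 2 of line 6 left of KO 1 and WT 1 of line 4. Grb10 stands at 61.1 FPKM in WT 2 and at 8.56 to 10.4 FPKM in the others, while Peg3, Usp29, Peg10, Sgce and Impact are lowest in WT 2.

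Among the paternally expressed genes, Peg3, Usp29, Peg10, Sgce and Impact had their lowest level in WT 2, and Mest, Nnat and Plagl1 did not. Peg10 differed most. Peg10, a gene derived from a retrotransposon and needed by the placenta, was at 45.0 FPKM in KO 2 and 16.9 FPKM in WT 2, and at 26.9 FPKM in KO 1 and 34.9 FPKM in WT 1. The KO/WT ratio was 2.67 in line 6 and 0.770 in line 4. KO 2 held the highest and WT 2 the lowest of the 4 values, and the clones of line 4 lay between them. By the KO minus WT difference of log2 values in line 6, Peg10 ranked first from the top of all 11932 tested genes.

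Sgce, which encodes epsilon-sarcoglycan, a membrane protein, starts head to head with Peg10 and shares its controlling region. Its level was 4.70 FPKM in KO 2 and 2.98 FPKM in WT 2, and 7.76 FPKM in KO 1 and 8.62 FPKM in WT 1. The ratio of KO to WT was 1.58 in line 6 and 0.901 in line 4. Both clones of line 6 lay below both clones of line 4, which was not so for Peg10. The profiles of the pair were not close: by distance between gene-centred log2 profiles over the 4 libraries, Sgce was at place 1061 of 10424 genes from Peg10.

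Impact, whose product binds GCN1 and restrains the kinase GCN2, had the highest mean of the 10 genes. It stood at 79.9 FPKM in KO 2 and 48.3 FPKM in WT 2, and at 69.4 FPKM in KO 1 and 99.4 FPKM in WT 1. The KO/WT ratios were 1.65 in line 6 and 0.698 in line 4. WT 2 was the lowest and WT 1 the highest clone, so the KO clones lay between the WT clones.

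Peg3 encodes a large zinc finger protein and Usp29 a protein of the deubiquitinase family. Peg3 was measured at 68.4 FPKM in KO 2 and 47.6 FPKM in WT 2, and at 52.8 FPKM in KO 1 and 79.7 FPKM in WT 1, with KO/WT ratios of 1.44 and 0.663. The order of the clones was that of Impact. Usp29 was near 0 on this scale, at 0.405 FPKM in KO 2 and 0.291 FPKM in WT 2, and at 0.451 FPKM in KO 1 and 0.488 FPKM in WT 1, below the filter for tests. Its ratios were 1.39 in line 6 and 0.924 in line 4. Peg3as, the antisense transcript listed at this locus, had the profile nearest to Peg3 of all candidates, at 64.5 FPKM in KO 2 and 46.3 FPKM in WT 2, and 54.4 FPKM in KO 1 and 77.3 FPKM in WT 1. The sources used here do not state whether counting used strand, so reads of this sense and antisense pair cannot be told apart.

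Mest, Nnat and Plagl1 were not lowest in WT 2 as deposited. Mest, an enzyme-like protein of the alpha/beta hydrolase fold, was at 28.4 FPKM in KO 2 and 30.2 FPKM in WT 2, and at 35.3 FPKM in KO 1 and 42.7 FPKM in WT 1. Nnat, a small membrane protein gene inside an intron of Blcap, was at 9.91 FPKM in KO 2 and 11.7 FPKM in WT 2, and at 12.3 FPKM in KO 1 and 17.6 FPKM in WT 1. Both were lower in each clone of line 6 than in each clone of line 4. Their KO/WT ratios in line 6 were 0.941 for Mest and 0.846 for Nnat, close to the 0.894 of the median gene. Relative to the median gene, Mest turned to 1.05 in line 6 and WT 2 became its lowest clone. Plagl1, a zinc finger regulator of growth, was near 0 in all clones, at 0.814 FPKM in KO 2 and 0.440 FPKM in WT 2, and at 0.229 FPKM in KO 1 and 0.298 FPKM in WT 1. It was the member with both clones of line 6 above both clones of line 4, which held for 16.3% of tested genes.

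Of the maternally expressed genes, Grb10 encodes an adaptor that restrains signalling from the insulin receptor. It was at 9.62 FPKM in KO 2 and 61.1 FPKM in WT 2, and at 8.56 FPKM in KO 1 and 10.4 FPKM in WT 1. The mean was 9.09 ± 0.747 FPKM in KO and 35.7 ± 35.9 FPKM in WT (SD, n = 2 each). WT 2 was 5.90-fold above the next clone, and the other 3 clones lay within a narrow range. The KO/WT ratio was 0.158 in line 6 and 0.827 in line 4. Relative to the median gene these ratios were 0.176 and 1.18, so the line 4 clones turned round with the scaling and those of line 6 did not. In the ranking of KO minus WT in line 6, Grb10 was at place 9 from the bottom of 11932. Igf2r, the receptor that clears IGF2 from the cell surface, had no clone that stood apart in this way. Its level was 18.96 FPKM in KO 2 and 24.1 FPKM in WT 2, and 25.6 FPKM in KO 1 and 35.0 FPKM in WT 1. The KO/WT ratio was 0.731 in line 4, near the 0.700 of the median gene. In line 6 it was 0.788, below the 0.894 of the median gene and at place 1690 from the bottom of 11932. Igf2r overlaps the antisense RNA Airn, which was listed at 0.480 FPKM in KO 2 and 0.430 FPKM in WT 2, and 0.359 FPKM in KO 1 and 0.826 FPKM in WT 1.

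By FPKM, which is per length, the mean over the 4 clones was 74.3 for Impact, 62.1 for Peg3, 34.1 for Mest, 30.9 for Peg10, 25.9 for Igf2r, 22.4 for Grb10, 12.9 for Nnat, 6.02 for Sgce, 0.445 for Plagl1 and 0.409 for Usp29. The ranges of Impact and Peg3 overlapped, and the lowest Peg3 value of 47.6 FPKM was above the highest of Mest at 42.7 FPKM. Mest, Peg10 and Igf2r overlapped one another. The place of Grb10 was set by WT 2: its range also took in values of Impact, Peg3, Nnat and Sgce, and its mean over the other 3 clones was 9.51 FPKM, below that of Nnat at 13.3 FPKM. The lowest Nnat value, 9.91 FPKM, was above the highest of Sgce, 8.62 FPKM. Plagl1 and Usp29 overlapped and lay below all the others.

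**Figure D2:**
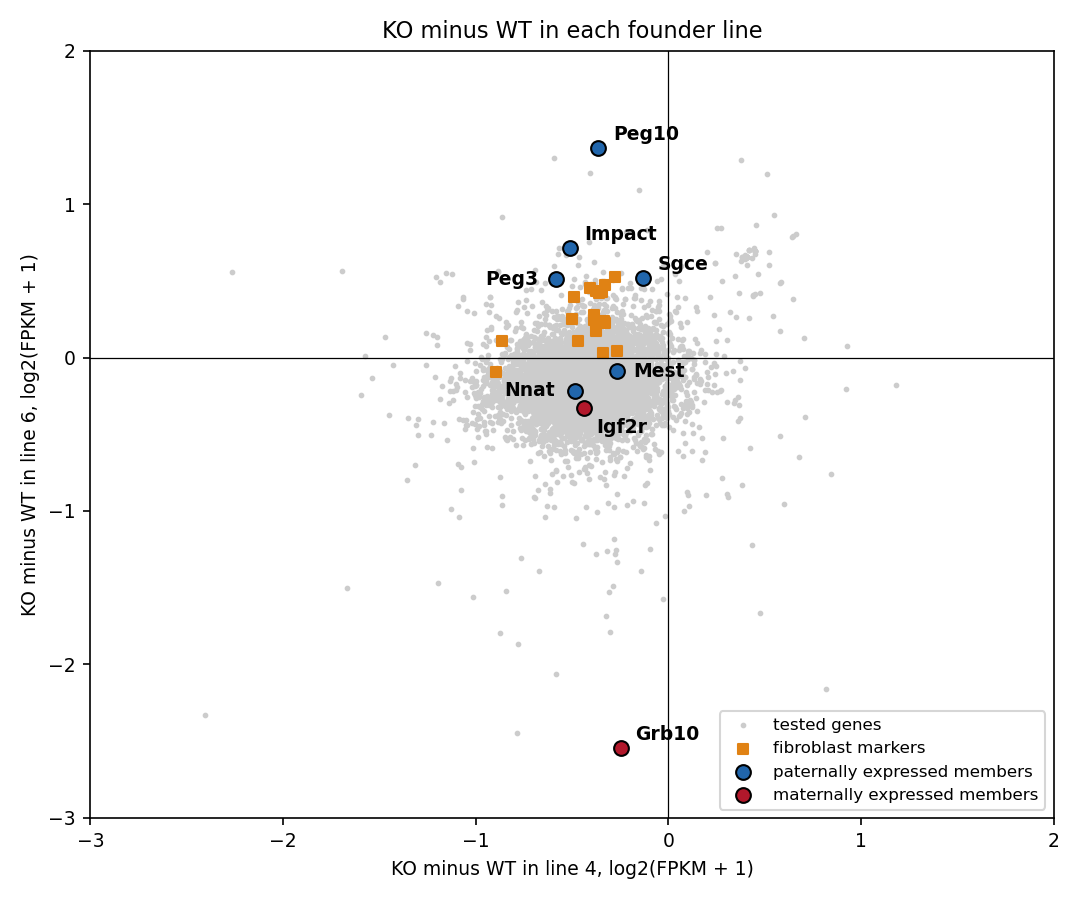
KO minus WT of log2(FPKM + 1) in line 4 (x axis) and line 6 (y axis) for the tested genes in grey, fibroblast markers in orange and the 8 tested members in blue (paternally expressed) and red (maternally expressed); 10 tested genes fall outside the range drawn. Peg10, Impact, Sgce and Peg3 lie above 0 in line 6 and below 0 in line 4, and Grb10 lies far below 0 in line 6.

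Set side by side, KO was above WT in line 6 and below it in line 4 for 6 of the 10 genes (Plagl1, Peg3, Usp29, Peg10, Sgce and Impact), all of them paternally expressed. Of the 8 tested members 4 did so, beside 11.3% of all tested genes. The members were chosen on these values, so nothing is read from that count. WT 2 was the lowest clone for 5 of the 10 as deposited, and for 4 of the 8 tested members, beside 3.55% of tested genes. With each library taken relative to its median gene, it was lowest for 6 of the 10, and for 5 of the 8 tested, beside 15% of tested genes. On that scale the ratio in line 6 was 2.98 for Peg10, 1.85 for Impact, 1.77 for Sgce, 1.61 for Peg3, 1.56 for Usp29 and 2.07 for Plagl1. In line 4 it was 1.10 for Peg10, 0.997 for Impact, 1.29 for Sgce, 0.947 for Peg3, 1.32 for Usp29 and 1.10 for Plagl1. KO 2 was thus above WT 2 for these 6 genes on both scales, and KO 1 below WT 1 on both scales for Peg3. For Impact the line 4 clones were level with each other relative to the median gene.

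KO was tested against WT over all 4 clones with limma on log2(FPKM + 1), adjusted by Benjamini-Hochberg over the 11932 tested genes. It called 2 genes (0.0168%) and 0 of the 8 tested members. At an unadjusted p under 0.05 there were 661 genes, with Grb10 the 1 member among them. The log2 difference was -1.40 for Grb10 (SE 0.47, limma adjusted p = 0.445), lower in KO in 2 of 2 lines as deposited. It was 0.50 for Peg10 (SE 0.30, limma adjusted p = 0.445), higher in KO in 1 of 2 lines. The other 6 ranged between -0.38 for Igf2r and 0.19 for Sgce, with adjusted p up to 0.911 at Peg3. In this fit limma drew each SE towards the trend over all genes, and with a robust spread that of Grb10 was 1.18. The median gene lay at -0.32. Relative to it, Grb10 was at -1.08, Peg10 at 0.82, Sgce at 0.51, Impact at 0.42 and Peg3 at 0.28. In line 4 as deposited, 282 of the 11932 tested genes were higher in KO. Relative to the median gene, the KO/WT ratio of Grb10 in line 4 was 1.18, so there it was higher in KO.

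The fit with the replicate block compares KO with WT within each founder line. It called 95 genes (0.796%), with Grb10 as the 1 member (limma adjusted p = 7.9e-08). Here limma took each gene's spread from the trend over all genes. The SE of Grb10, 0.22, therefore did not reflect how far apart its own differences were, -2.55 in line 6 and -0.25 in line 4. The call ended when libraries were also centred on their medians, where 33 genes (0.277%) were called and Grb10 had an adjusted p of 0.847. It also ended with a robust spread, at 91 genes (0.763%) and an adjusted p of 0.350. Without WT 2, 133 genes (1.11%) and 0 members were called, and the log2 difference of Grb10 was -0.17 (limma adjusted p = 0.699). Without WT 1, 20 genes (0.168%) were called with Grb10 among them, at -2.62. That fit sets WT 2 alone against the KO clones, and Grb10 was chosen with its high level in WT 2 known. The Grb10 calls in that fit and with the replicate block are therefore descriptions. In each fit that leaves out a clone, the lone clone is assumed to vary like the pair it is set against. Peg10, Sgce and Impact turned to -0.0022, -0.44 and -0.41 without WT 2, and Peg3 was at -0.40. The directions of Peg10, Sgce and Impact and the size of the Grb10 difference thus depended on WT 2. Other clones moved these genes too. Without KO 1, Sgce was at -0.12 and Peg3 at 0.15. Without WT 1, Peg3 was at 0.33. Without KO 2, Peg10 was at 0.14 and Impact at 0.00038, and with all 4 clones Peg3 was at -0.03.

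Line 6 was also set against line 4, with each gene's spread again taken by limma from the trend over all genes. This comparison of 2 derivations called 236 genes (1.98%), and Grb10 was the 1 member called, with a log2 difference of 1.30 (SE 0.34, limma adjusted p = 0.0117). Without WT 2 it was 0.03 (limma adjusted p = 1.000) and 7 genes (0.0587%) were called. Without KO 2 it was 2.57 (limma adjusted p = 0.190) and 21 genes (0.176%) were called. The call also ended with no filter on low values, with a robust spread (with or without genotype as a factor), with libraries centred on their medians (with or without that factor) and with quantile normalization, where the limma adjusted p ranged from 0.124 to 0.809. Sgce was at -0.95 (SE 0.32, limma adjusted p = 0.119) and did not pass. It passed with genotype as a factor (adjusted p = 0.000795), where 1089 genes (9.13%) were called. With libraries centred on their medians 3602 genes (30.2%) were called. Grb10 was not among them (limma adjusted p = 0.177). Igf2r, Sgce, Mest and Nnat were then called lower in line 6, with differences of -0.43, -0.90, -0.36 and -0.37 (limma adjusted p from 0.0144 to 0.0284). As deposited, these 4 tested members and Usp29 had both clones of line 6 below both clones of line 4, beside 17.4% of all tested genes. The members were chosen with these values known, so these calls too are descriptions.

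**Figure D3:**
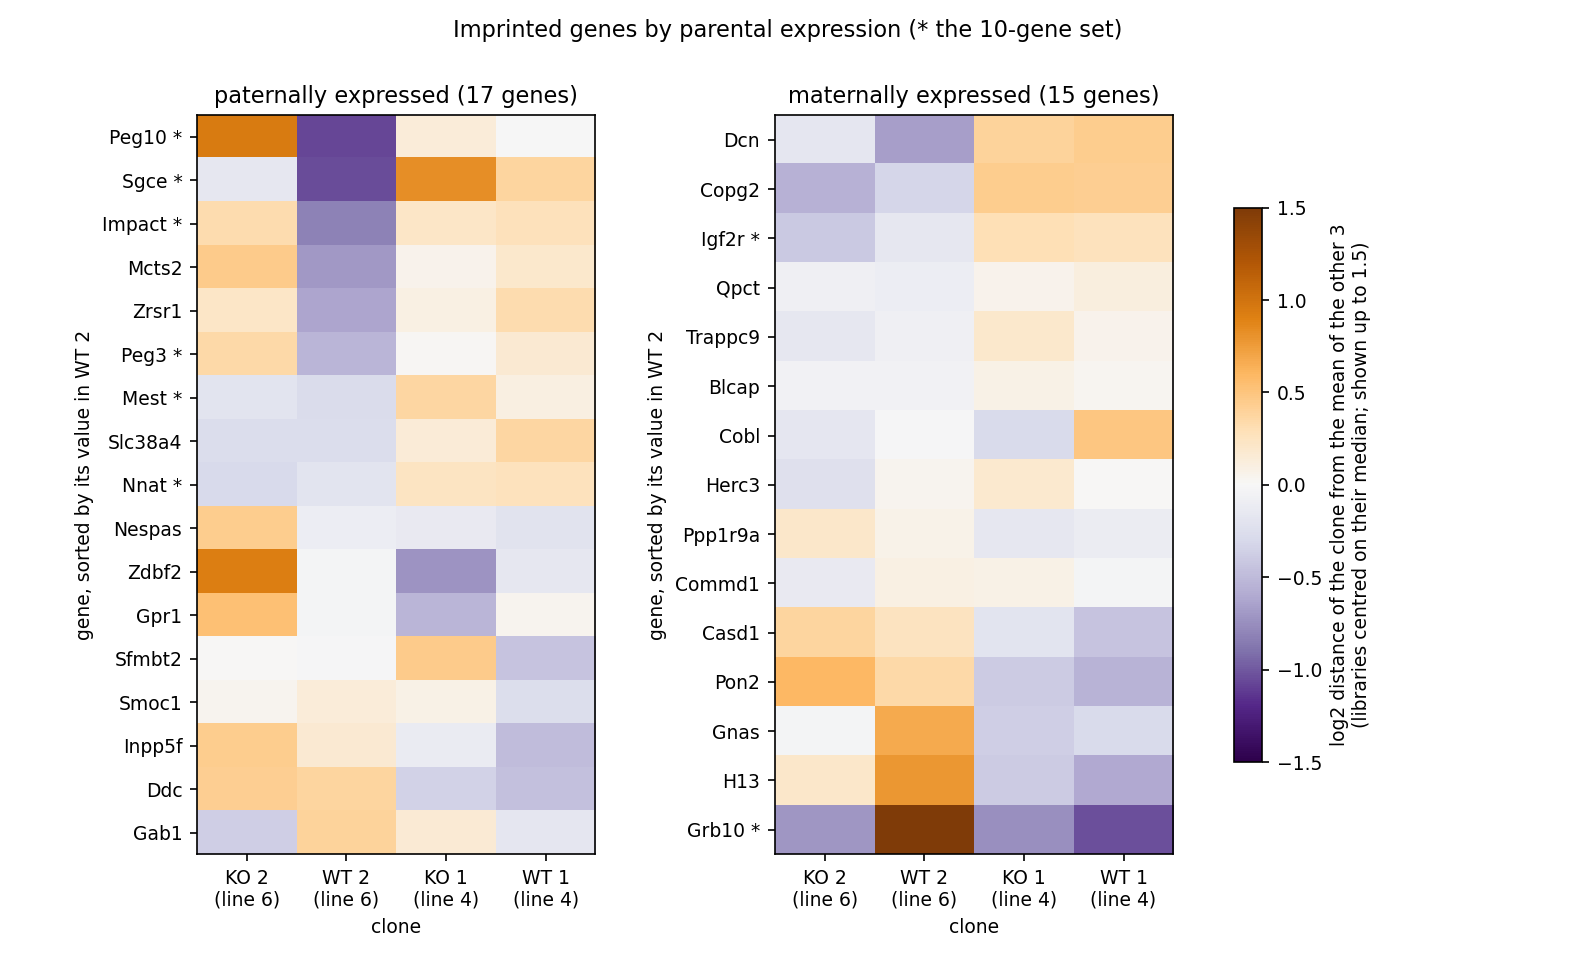
Each cell is the log2 distance of 1 clone from the mean of the other 3, after centring each library on its median, for the 17 paternally and 15 maternally expressed imprinted genes that were tested; rows are sorted by WT 2 and asterisks mark members of the 10-gene set. Peg10, Sgce, Impact, Mcts2, Zrsr1 and Peg3 are the lowest in WT 2 among the paternally expressed genes, and Grb10, H13 and Gnas the highest among the maternally expressed. Dcn, the lowest of the maternally expressed genes in WT 2, is at -0.67, below Zrsr1 at -0.62 and Peg3 at -0.54.

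A list of 41 other imprinted genes of further domains was read beside the members. In the files 40 were found and 24 tested, of which 0 were called by limma in either comparison. At an unadjusted p under 0.05 there were 2 for KO against WT (Gnas and Cobl) and 4 for line 6 against line 4 (H13, Copg2, Pon2 and Dcn), beside 661 and 1029 of the 11932 tested genes. Of the 11 paternally expressed, 6 were higher in KO 2 than in WT 2 as deposited (Zdbf2, Gpr1, Mcts2, Nespas, Zrsr1 and Inpp5f), against 2 of the 13 maternally expressed (Pon2 and Dcn), and the difference between these classes was not tested. Over all tested genes 12.3% were higher in KO in line 6. Many genes of the list are imprinted only in certain tissues, such as the placenta. Mcts2, a retrogene inside H13, was at 19.6 FPKM in KO 2 and 11.5 FPKM in WT 2, and 14.5 FPKM in KO 1 and 22.0 FPKM in WT 1, a KO/WT ratio of 1.70 in line 6. Its host H13 encodes a signal peptide peptidase. H13, maternally expressed in its full-length form, was highest in WT 2, at 3.04 FPKM in KO 2 and 5.02 FPKM in WT 2, and 1.72 FPKM in KO 1 and 2.37 FPKM in WT 1. Zrsr1, a retrogene of a splicing factor inside Commd1, was at 4.73 FPKM in KO 2 and 3.09 FPKM in WT 2, and 3.92 FPKM in KO 1 and 6.67 FPKM in WT 1. The places of these genes by profile were looked up after their values were seen. Mcts2 was at place 4 and Zrsr1 at place 6 from Peg3, and at places 2 and 3 from Impact, of 10424 candidates. With 4 libraries that share a scale, such a place is a description.

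The most abundant genes of that list did not all follow. Slc38a4, an amino acid transporter, was at 49.9 FPKM in KO 2 and 55.4 FPKM in WT 2, and 57.1 FPKM in KO 1 and 89.2 FPKM in WT 1. Gab1, a signalling adaptor imprinted in the placenta, was at 21.1 FPKM in KO 2 and 35.5 FPKM in WT 2, and 25.9 FPKM in KO 1 and 30.2 FPKM in WT 1, so WT 2 was its highest clone. Of the maternally expressed, Gnas, the stimulatory G protein subunit, was at 29.2 FPKM in KO 2 and 47.2 FPKM in WT 2, and 22.3 FPKM in KO 1 and 32.6 FPKM in WT 1. Commd1, of copper transport, ranged from 45.8 FPKM in KO 2 to 62.0 FPKM in WT 1. Copg2, a coat protein gene that overlaps the end of Mest, was at 23.9 FPKM in KO 2 and 30.3 FPKM in WT 2, and 37.7 FPKM in KO 1 and 52.1 FPKM in WT 1. Like Mest, it had both clones of line 6 below those of line 4.

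**Figure D4:**
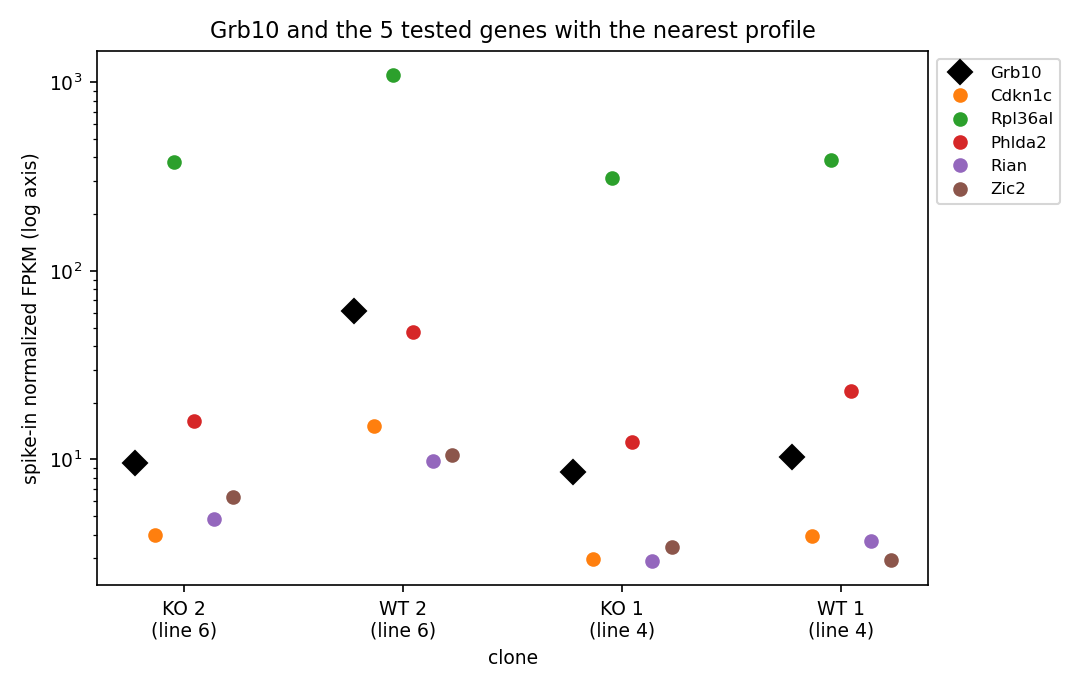
Spike-in normalized FPKM (log axis) in the 4 clones for Grb10 (black diamonds) and the 5 tested genes with the nearest profile, with line 6 left of line 4 and KO left of WT in each. All 6 genes are highest in WT 2, which follows from the choice by nearness to Grb10.

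Which genes ran like Grb10 was asked of 10424 tested genes by the Euclidean distance between gene-centred log2 profiles over the 4 libraries. The nearest was Cdkn1c (distance 0.674), an inhibitor of the cell cycle, at 3.99 FPKM in KO 2 and 15.1 FPKM in WT 2, and 2.96 FPKM in KO 1 and 3.95 FPKM in WT 1. Rpl36al (0.831) followed, a ribosomal protein gene in the chromosome 12 run described above, at 378 FPKM in KO 2 and 1093 FPKM in WT 2, and 312 FPKM in KO 1 and 387 FPKM in WT 1. Phlda2 (1.05), a brake on placental growth, was at 15.9 FPKM in KO 2 and 47.6 FPKM in WT 2, and 12.4 FPKM in KO 1 and 23.1 FPKM in WT 1. Rian (1.24), a non-coding RNA, was at 4.84 FPKM in KO 2 and 9.83 FPKM in WT 2, and 2.89 FPKM in KO 1 and 3.68 FPKM in WT 1. Zic2 (1.37), a zinc finger factor, was at 6.31 FPKM in KO 2 and 10.6 FPKM in WT 2, and 3.44 FPKM in KO 1 and 2.93 FPKM in WT 1. In all 5 genes WT 2 was the highest clone, which follows from picking them by nearness to Grb10. The share of imprinted genes among them was not tested. Cdkn1c and Phlda2 of the H19-Kcnq1 domains and Rian of the Dlk1 domain are, as background, maternally expressed imprinted genes. By the gap of WT 2 to the next clone Grb10 was at place 9 of the 18 genes that passed the 1 log2 mark. Of the 8 genes before it, 7 lie in the chromosome 12 run. The other, 1110034A24Rik, was not found in the RefSeq gene order, so its place is unknown here. Cdkn1c and Phlda2 were also among the 18, with 3 small RNA entries that lie within Rian.

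Neighbouring genes were read beside 5 of the members. Beside Grb10 on chromosome 11, Ddc was at 5.42 FPKM in KO 2 and 5.95 FPKM in WT 2 and Fignl1 at 27.0 FPKM in KO 2 and 31.3 FPKM in WT 2. On the other side Cobl was at 10.6 FPKM in KO 2 and 12.9 FPKM in WT 2 and Sec61g at 233 FPKM in KO 2 and 253 FPKM in WT 2. Their KO/WT ratios in line 6 lay between 0.825 and 0.920, against 0.158 for Grb10. Beside Peg3 and Usp29, the line 6 ratios of Zfp667, Aurkc and Zfp954 were 0.820, 0.741 and 0.727, and that of Zscan5b was 1.09. Beside Peg10 and Sgce, the ratio was 0.964 for Casd1, 0.965 for Ppp1r9a and 1.04 for Pon2, all maternally expressed in some tissues. The ratio of Col1a2, a collagen of fibroblasts, was 1.35.

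**Figure D5:**
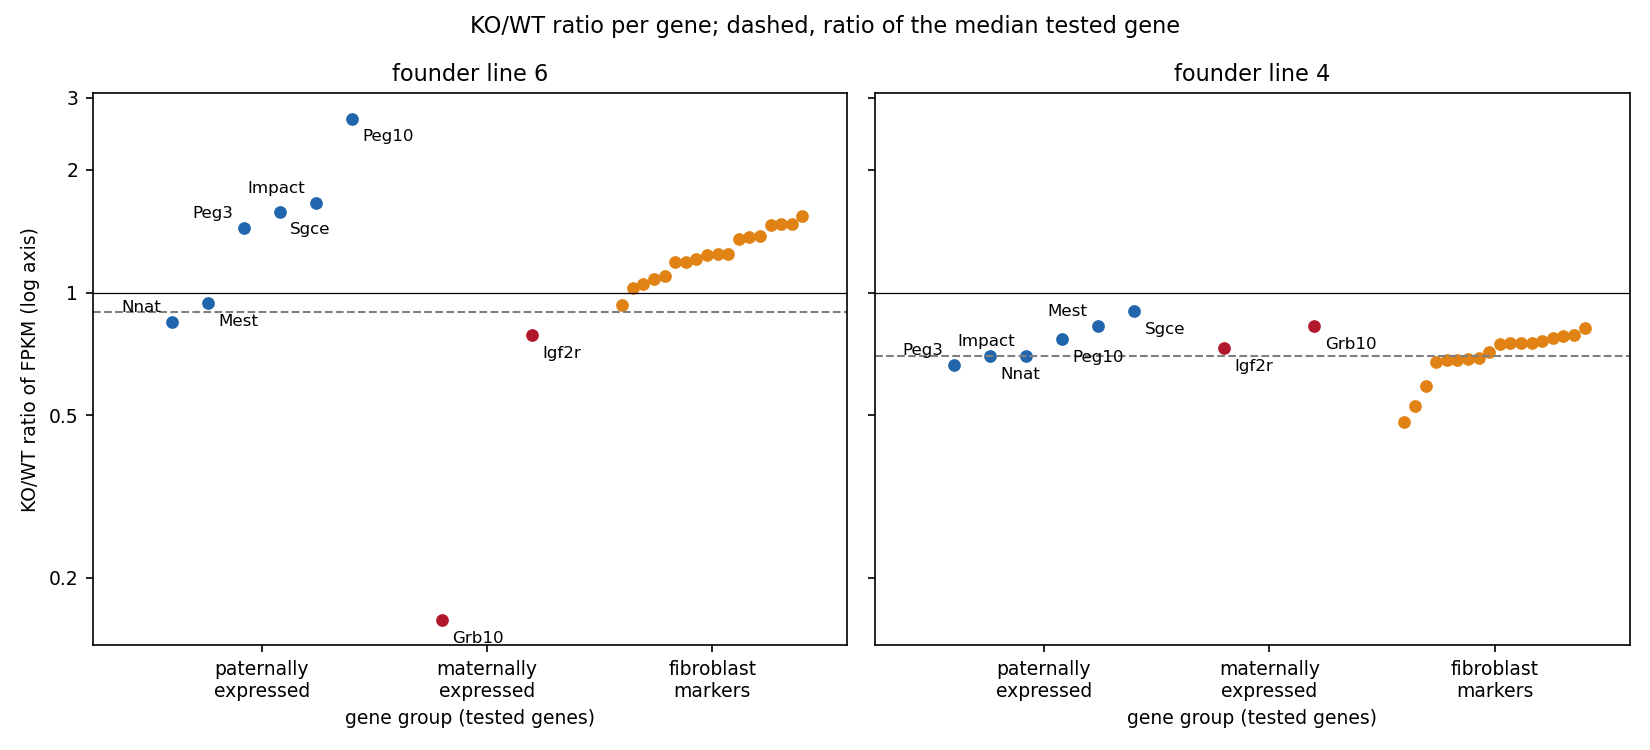
KO/WT ratio of FPKM (log axis) for the tested paternally expressed members (blue), maternally expressed members (red) and 18 fibroblast markers (orange), in line 6 on the left and line 4 on the right, with the median tested gene dashed. In line 6, 17 of 18 fibroblast markers lie above 1, up to 1.54, and Peg10, Impact and Sgce lie above all of them.

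Markers of other cell types also differed between the clones. Fibroblast markers, which the feeder cells express, summed to 351 FPKM in KO 2 and 299 FPKM in WT 2, and to 247 FPKM in KO 1 and 346 FPKM in WT 1. None of the 20 was below 0.1 FPKM in any clone, and S100a4 and Acta2 reached the highest levels, 98.9 and 65.1 FPKM in KO 2. Of the 18 tested, 17 were higher in KO 2 than in WT 2, beside 12.3% of all tested genes. Their ratios ran from 0.933 for Fstl1 through a median of 1.24 to 1.54 for Loxl1. In line 4 they ran from 0.481 to 0.819, with 0 above 1, beside 282 of the 11932 tested genes. Of the 18, 9 were lowest in WT 2, beside 3.55% of tested genes. The line 6 ratios of Peg10 (2.67), Impact (1.65) and Sgce (1.58) were above the highest fibroblast ratio, and Peg3 (1.44) was within the range. For Sgce this depended on the scale. By KO minus WT of log2(FPKM + 1) in line 6, Col1a1 at 0.528 was above Sgce at 0.520 and Peg3 at 0.515. Impact at 0.714 and Peg10 at 1.36 were above Col1a1. The part of feeder RNA in the levels of the paternally expressed genes was not tested, and in these bulk libraries fewer cells of a type and less RNA per cell cannot be told apart. All 10 stem cell markers were present, with Dppa5a at 1977 FPKM in KO 2 and 2390 FPKM in WT 2, and their line 6 ratios ran from 0.777 to 0.890.

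Markers of extraembryonic endoderm summed to 9.72 FPKM in KO 2 and 11.9 FPKM in WT 2, and to 3.26 FPKM in KO 1 and 6.18 FPKM in WT 1, with 5 of 9 below 1 FPKM in every clone. WT 2 was the highest clone for 6 of the 9, and for 2 of the 3 that were tested, beside 3394 of the 11932 tested genes. For Gata6 and Sox7 it was close to KO 2, at 1.39 against 1.36 FPKM and 0.258 against 0.256 FPKM. Gata4, a factor of this lineage, was at 1.16 FPKM in KO 2 and 2.32 FPKM in WT 2, and 0.426 FPKM in KO 1 and 1.07 FPKM in WT 1. Dab2, an endocytic adaptor, was at 2.53 FPKM in KO 2 and 3.50 FPKM in WT 2, and 0.489 FPKM in KO 1 and 1.37 FPKM in WT 1. Both were highest in WT 2, by 2.01-fold and 1.38-fold over KO 2, where Grb10 was 5.90-fold above the next clone. Pdgfra, the other tested marker and also on the fibroblast list, was highest in KO 2. Its level was 3.45 FPKM in KO 2 and 3.36 FPKM in WT 2, and 1.46 FPKM in KO 1 and 2.11 FPKM in WT 1. Gata4, Dab2 and Pdgfra had both clones of line 6 above both clones of line 4, which was not so for Grb10. Trophectoderm markers summed to 19.7 FPKM in KO 2 and 23.2 FPKM in WT 2, and to 34.3 FPKM in KO 1 and 44.3 FPKM in WT 1. Most of each sum was Tfap2c, at 13.2, 16.3, 27.6 and 35.5 FPKM in that order, and 5 of 9 were below 1 FPKM throughout. Neural markers summed to 39.4 FPKM in KO 2 and 46.2 FPKM in WT 2, and to 34.3 FPKM in KO 1 and 30.8 FPKM in WT 1. Here Tubb3 was most of each sum, at 30.8, 35.9, 28.9 and 25.0 FPKM in that order, and 3 of 7 were below 1 FPKM throughout. All 8 mesoderm markers were below 1 FPKM in each clone. The part of such cells in the level of Grb10 was not tested.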

How the data were processed

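Total RNA of the 4 clones was made into ribosomal RNA-depleted, stranded libraries with added control RNA, per the labels' protocols. The authors deposited 1 spike-in normalized FPKM value per gene and library, per the file headers. The submitters' processing notes name mm9 as the build and, with no role given, HTSeq, edgeR, affy, TopHat2 2.0.9 and Bowtie 0.12.8. The way the control RNA entered the scaling is not stated. Depth is unknown from FPKM, so no counting interval is given. Of 23376 entries per library, 92 spike-ins and 25 entries whose names did not match across files were left out, and 23259 genes remained.

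Values were taken as log2(FPKM + 1), a scale that understates the change of low genes. Testing took the 11932 genes whose mean reached 1 FPKM and used limma 3.58.1 under R 4.3.3 (two-sided, eBayes with trend), with Benjamini-Hochberg adjustment at 0.05. Scripts ran in Python 3.11.15. The test was tried on simulated data with known changes. Each group holds 2 clones, and nothing gives a repeat library of a clone. The p-values for KO against WT without the block thus rest on the spread between clones of different lines, which limma drew strongly towards the trend over all genes. Those for line 6 against line 4 rest on the spread between the KO and WT clones of each line. In that fit and in the one with the replicate block, limma took each gene's spread wholly from the trend over all genes.

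The clones' names in the labels show that the replicate number is the founder line, so numbers pair KO with WT. Across genes their deviations from the group means correlated at r = 0.70. Alternatives were another pseudocount (0.1), no filter, 2 other scalings, a robust spread, the replicate block and leaving out each clone.

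The members and lists were chosen with earlier results of these data known. Named genes are all members, the 3 most abundant other imprinted genes of each parental class, 2 tested neighbours on each side, the 5 profiles nearest to Grb10 without small RNA and unnamed entries, and up to 2 markers per list. Genes outside this rule were named after their values were seen. Gene order and promoter windows come from RefSeq (GRCm38.p6), and no coordinates were moved between builds.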

Additional observations from a re-analysis of the deposited data

Results flagged for a closer look

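For 6 of the members the KO clone stood above the WT clone in line 6 and below it in line 4, with 1 library per clone, and the difference between the lines was not tested. The KO/WT ratios of FPKM in line 6 and line 4 were 2.67 and 0.770 for Peg10, 1.65 and 0.698 for Impact, and 1.58 and 0.901 for Sgce. They were 1.44 and 0.663 for Peg3, 1.39 and 0.924 for Usp29, and 1.85 and 0.770 for Plagl1. Relative to the median tested gene the opposite directions were left at Peg3 (1.61 in line 6 and 0.947 in line 4). Impact was at 1.85 in line 6 and, at 0.997, level with the median gene in line 4. Usp29 and Plagl1 were below 1 FPKM in all clones.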

How the results depend on the processing

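Leaving out each clone in turn gave 0 to 133 genes and 0 to 1 members for KO against WT, and 7 to 1607 genes and 0 to 2 members for line 6 against line 4. The 2 genes called for KO against WT became 0 with no filter, with libraries centred on their medians and with quantile normalization, 95 (1 member) with the replicate block, 33 once the blocked values were also centred and 91 with block and robust spread. For line 6 against line 4, 0 genes and 0 members were called with no filter, 3602 and 4 on centred values, 3865 and 4 with quantile normalization, 1089 and 2 with genotype as a factor, 3531 and 4 with that factor on centred values, and 1096 with that factor and a robust spread. The robust spread alone left 0 members. The cause was not tested.

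Log2 differences of KO against WT turned round for Peg3 and Mest, to 0.27 and 0.13 on centred values with or without the block and to 0.31 and 0.17 with quantile normalization. Leaving out each clone in turn, the KO against WT difference ranged from -0.40 to 0.33 for Peg3, -0.0022 to 1.00 for Peg10, -0.44 to 0.83 for Sgce, -0.42 to 0.067 for Mest and -0.41 to 0.61 for Impact, and the lowest of each came without WT 2. For line 6 against line 4 it ranged from -0.47 to 0.11 for Peg3 and -0.82 to 0.54 for Peg10.

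The KO/WT ratio in line 4 passed 1 relative to the median gene for Grb10 (1.18), Igf2r (1.04), Plagl1 (1.10), Usp29 (1.32), Peg10 (1.10), Sgce (1.29) and Mest (1.18), and with quantile normalization at 1.18, 1.02, 1.03, 1.27, 1.08, 1.27 and 1.16 for the same genes. In line 6 Mest turned to 1.05 and 1.10 under these scalings. Of the other log2 differences of single members, 149 kept their direction and their side of the threshold, 18 passed it only under the alternative and 8 passed it only as first fitted. Those 8 were all Grb10 for line 6 against line 4. The 18 were Grb10 for KO against WT (2) and Sgce, Igf2r, Mest and Nnat for line 6 against line 4. The other 24 ratios kept their direction. Depth is unknown, and Usp29 and Plagl1 are too low for a test.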
